A study of Homo sapiens with 24 samples.

Results

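The regions described here are sites where MYOD was bound in every MYOD library of the study while the active-chromatin mark H3K27ac was called in none of the H3K27ac libraries. Joining MYOD peaks of the 4 lists at any overlap of 1 bp or more gave 88541 MYOD regions. Of these, 17971 had a peak in all 4 lists and are called constant MYOD regions. The 1648 constant regions that overlapped no peak in any of the 4 H3K27ac lists are called unmarked constant sites, and they made up 9.17% of the constant regions, whereas 27.1% of all MYOD regions lay outside H3K27ac. Of the other constant regions, 12579 (70%) overlapped H3K27ac in all 4 lists and are called marked constant sites, and 3744 (20.8%) overlapped it in 1 to 3 lists. The unmarked sites were chosen by their MYOD and H3K27ac peaks, so these values are a description with no test. A missing H3K27ac peak means that none passed the authors' threshold, not that the mark was absent.

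All libraries were ChIP-seq of RD, an established human line of fusion-negative rhabdomyosarcoma, in which cells of the muscle lineage fail to complete differentiation. H3K27ac, MYOD and SMARCA4 were each profiled in 2 libraries of cells with TWIST2 knockdown (genotype TWIST2 KD) and in 2 libraries of control cells (genotype control), and tagged TWIST2 in 2 libraries named 3xTy1-TWIST2, with a Ty1 antibody and no genotype given. H3K27ac, MYOD and Ty1 carried the set name RD-1 in the labels and SMARCA4 the set name RD-2. The knockdown method, the promoter of the tagged TWIST2, the meaning of the set names and whether replicates were separate cultures are not given in the labels, so p-values reflect spread among libraries that may be technical. The lists held 12518 and 14676 SMARCA4 peaks in the TWIST2 KD libraries and 11835 and 25013 in the control libraries. File headers give 36095336 to 46690705 tags per SMARCA4 library, whereas depth is unknown for MYOD, H3K27ac and Ty1. The level of TWIST2 after knockdown was not measured in these files.

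MYOD is a basic helix-loop-helix factor that drives skeletal muscle differentiation by binding E-box sequences, usually as a dimer with an E protein. TWIST2 belongs to the same class of factors, also binds E-boxes, and is known as an inhibitor of muscle differentiation. SMARCA4, also named BRG1, powers SWI/SNF complexes, which move nucleosomes and are recruited to muscle genes together with MYOD. H3K27ac is laid down by the acetyltransferases p300 and CBP at active promoters and enhancers, whereas a factor can also occupy sites without it.

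Tagged TWIST2 was called at 724 of the 1648 unmarked sites in Ty1 replicate 1 and at 724 in Ty1 replicate 2, which is 43.9% in each. Over all MYOD regions these shares were 35.8% and 35.1%. The 2 lists shared 554 of these sites, so 33.6% of the unmarked sites (95% Wilson interval 31.4% to 35.9%) had TWIST2 in both libraries, against a background of 26.5% of all MYOD regions. A Ty1 peak in at least 1 library was found at 894 unmarked sites (54.2%), against 44.4% of all MYOD regions. In both libraries the share at unmarked sites was above that of MYOD regions in general.

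The marked constant sites carried TWIST2 at higher shares than the unmarked ones in both Ty1 libraries. The share was 43.9% of unmarked sites against 58.5% of marked sites in replicate 1, and 43.9% against 58.6% in replicate 2. Both lists had a peak at 33.6% of unmarked and 48.9% of marked sites. The mean difference per library was -14.6 percentage points, with p = 0.5 in an exact two-sided sign-flip permutation test, the smallest that 2 libraries allow. Adjusted by the Benjamini-Hochberg method over the 8 comparisons made here, p stayed at 0.5. With marked sites weighted to the same classes of place in the MYOD lists, the difference for both lists was -8.03 percentage points.

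The unmarked sites were also set against MYOD regions that were not constant. A further 22345 MYOD regions outside H3K27ac had a peak in fewer than 4 MYOD lists, and they are called variable unmarked regions. TWIST2 was called in both libraries at 33.6% of the unmarked constant sites and at 18% of the variable unmarked regions. Per library the difference averaged 17.9 percentage points in favour of the constant sites (exact permutation p = 0.5, again the smallest possible, adjusted p = 0.5). MYOD strength and region width were not matched between these classes, and their part in the difference was not tested.

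**Figure D1:**
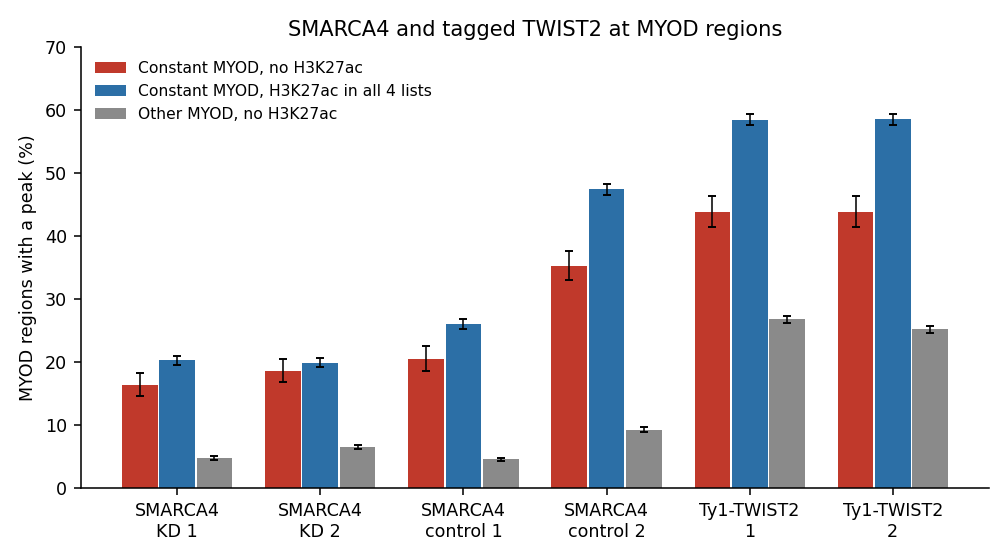
Percent of regions overlapped by a peak of each SMARCA4 and Ty1 library, for unmarked constant sites (red), marked sites (blue) and variable unmarked regions (grey). Bars give the share in each library and error bars the 95% Wilson interval. Unmarked sites lay at 16.4% to 35.3% for SMARCA4 and at 43.9% for Ty1, below the marked sites in every library and above the variable unmarked regions in every library.

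SMARCA4 was called at 270 (16.4%) and 307 (18.6%) of the 1648 unmarked sites in the TWIST2 KD libraries, and at 339 (20.6%) and 582 (35.3%) in the control libraries. Over all MYOD regions the background shares were 9.9% and 10.5% in the TWIST2 KD libraries and 10.8% and 21.5% in the control libraries. Control replicate 2 stood apart from the other 3 libraries, and its list was also the longest. In each library the share at unmarked sites was above the share at MYOD regions in general. At least 1 of the 4 libraries had a SMARCA4 peak at 921 unmarked sites (55.9%), against 36.1% of all MYOD regions.

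SMARCA4 shares at unmarked sites were compared with those at marked sites within each library, since both are read from the same list. TWIST2 KD replicate 1 had 16.4% at unmarked against 20.3% at marked sites, and TWIST2 KD replicate 2 had 18.6% against 19.9%. Control replicate 1 had 20.6% against 26.1%, and control replicate 2 had 35.3% against 47.5%. The unmarked share was lower in 4 of 4 libraries. With marked sites weighted by class of MYOD list place, the direction differed between libraries (values given with the MYOD lists). The mean difference was -5.72 percentage points (exact two-sided sign-flip permutation test over the 4 libraries, p = 0.125, the smallest possible, adjusted p = 0.25), and it was -3.57 without control replicate 2. Against constant sites with H3K27ac in 1 to 3 lists the mean difference was -0.112 percentage points, with an exact permutation p = 1 in the same test. Unmarked sites were lower in both TWIST2 KD libraries (16.4% against 19% and 18.6% against 19.7%) and higher in both control libraries (20.6% against 17.8% and 35.3% against 34.9%).

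The contrast with the variable unmarked regions was larger. SMARCA4 covered 16.4% and 18.6% of the unmarked constant sites in the TWIST2 KD libraries, against 4.78% and 6.49% of the variable regions in the same libraries. In the control libraries it covered 20.6% and 35.3% of the unmarked constant sites, against 4.60% and 9.29% of the variable regions. The ratio ran between 2.87 and 4.47, and the mean difference was 16.4 percentage points (exact sign-flip permutation p = 0.125, the smallest possible, adjusted p = 0.25). Constant sites join peaks of all MYOD lists, whereas a variable region can be a single peak. Neither region width nor MYOD strength was matched between these classes, and their part in the difference was not tested.

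SMARCA4 calls at the unmarked sites were seldom shared by all libraries. No library had a peak at 727 of them, while 504 had a peak in 1 library, 281 in 2, 112 in 3 and 24 in all 4. The 24 sites are 1.46% of the unmarked sites, against 1.98% of the marked sites and a background of 0.541% of all MYOD regions. Where SMARCA4 was called at unmarked sites, the authors' normalized tag signal had medians of 5.26 and 4.63 in the TWIST2 KD libraries and 6.64 and 6.69 in the control libraries. The marked sites had medians of 5.54 and 5.36 in the TWIST2 KD libraries and 8.35 and 8.48 in the control libraries. HOMER had scaled this signal, as the authors deposited it, to a common number of tags per library. Over whole lists the medians were 4.99 and 4.38 in the TWIST2 KD libraries and 7.07 and 6.69 in the control libraries. The share of tags lying in peaks was 0.65% and 0.7% in the TWIST2 KD libraries and 0.88% and 1.83% in the control libraries. These medians are thus read within a library, not between TWIST2 KD and control.

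The TWIST2 KD libraries averaged 17.5 ± 1.59% of unmarked sites with SMARCA4 and the control libraries 27.9 ± 10.4% (SD, n = 2 each). The difference of -10.4 percentage points had p = 0.333 in an exact two-sided permutation test, the smallest that 2 against 2 libraries allow, and 0.444 after adjustment. It was -3.06 without control replicate 2 and -17.8 without control replicate 1. It was -2.34 when all 4 SMARCA4 lists were cut to equal length by score, and -3.03 when each was cut to the upper fraction of 0.5. Under either cut, the TWIST2 KD libraries did not both lie below both control libraries. The longest list, of control replicate 2, had the highest share. Among the other 3 libraries the shortest list, of control replicate 1, had the highest share. Median SMARCA4 peak widths were 140 and 144 bp in the TWIST2 KD lists and 194 and 158 bp in the control lists. The part of list length, peak width and share of tags in peaks in this difference was not tested.

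The ratio of TWIST2 KD to control was also read at other MYOD regions. The TWIST2 KD mean divided by the control mean was 0.626 at unmarked sites, 0.547 at marked sites, 0.733 at constant sites with H3K27ac in 1 to 3 lists, 0.811 at variable unmarked regions and 0.632 over all MYOD regions. Divided by control replicate 1 alone, the TWIST2 KD mean gave 0.851, 0.772, 1.09, 1.22 and 0.944 in the same order. Without control replicate 2 the ratio thus stayed below 1 at unmarked sites, at marked sites and over all MYOD regions. It was above 1 at constant sites with H3K27ac in 1 to 3 lists and at variable unmarked regions. The gap between unmarked and marked sites differed between TWIST2 KD and control by 6.21 percentage points (exact permutation p = 0.333, the smallest possible, adjusted p = 0.444). That value was 2.87 without control replicate 2 and 9.54 without control replicate 1. Unmarked sites with SMARCA4 in both TWIST2 KD libraries and no control library numbered 29 (1.76%, background 0.902%). Those with SMARCA4 in both control libraries and no TWIST2 KD library numbered 95 (5.76%, background 3.26%).

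TWIST2 and SMARCA4 calls were set against each other at the unmarked sites. Of the 1648 sites, 348 (21.1%) had TWIST2 in both Ty1 lists and SMARCA4 in at least 1 library, and 206 (12.5%) had TWIST2 in both and no SMARCA4. A further 372 sites (22.6%) had SMARCA4 without a Ty1 peak, and 382 (23.2%) had neither. The remaining 201 with SMARCA4 and 139 without had a Ty1 peak in 1 list. In the same order, the marked sites had these 4 combinations at 36.0%, 12.8%, 18.6% and 13.2%. Variable unmarked regions had them at 5.59%, 12.4%, 9.80% and 56.1%. TWIST2 in both lists without SMARCA4 thus had a similar share in each of these classes.

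SMARCA4 was called more often at unmarked sites with TWIST2 than at those without a Ty1 peak, in 4 of 4 libraries. The shares were 19.1% against 14.1% in TWIST2 KD replicate 1, and 20.6% against 17.2% in TWIST2 KD replicate 2. They were 21.7% against 17.5% in control replicate 1, and 39.9% against 30.6% in control replicate 2. The mean difference was 5.46 percentage points (exact sign-flip permutation p = 0.125, the smallest possible, adjusted p = 0.25). Place in the MYOD lists was not matched between sites with and without TWIST2, and its part in the difference was not tested. Over any library, SMARCA4 was found at 62.8% of unmarked sites with TWIST2 and 49.3% of those without a Ty1 peak, and at 73.7% and 58.4% of the corresponding marked sites.

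TWIST2 and SMARCA4 peak centres lay close to the MYOD centre. The merged sites had a median width of 288 bp, and the 4 MYOD peak centres of a site spanned a median of 89 bp. Ty1 peak centres lay a median of 45.4 bp (replicate 1) and 46.8 bp (replicate 2) from the mean MYOD centre. SMARCA4 centres lay a median of 52.0 and 49.2 bp from it in the TWIST2 KD libraries and 47.5 and 43.4 bp in the control libraries. Between 48.5% and 57.7% of these centres fell within 50 bp, against 47.5% to 56.0% at marked sites.

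The distance to H3K27ac was read in each library. The median distance from an unmarked site to the nearest H3K27ac peak was 21176 and 21670 bp in the TWIST2 KD libraries and 25338 and 28394 bp in the control libraries. H3K27ac lists were longer in the TWIST2 KD libraries, with 48022 and 46822 peaks, than in the control libraries, with 36679 and 34932. The part of list length in these distances was not tested. Over all 4 lists, 119 unmarked sites (7.22%) had a peak within 1 kb, 610 (37.0%) within 10 kb and 1482 (89.9%) within 100 kb. Variable unmarked regions had one at 7.61%, 43.5% and 93.0%, and their median distances were shorter in each library, at 15608 and 16294 bp in the TWIST2 KD libraries and 21326 and 23112 bp in the control libraries.

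**Figure D2:**
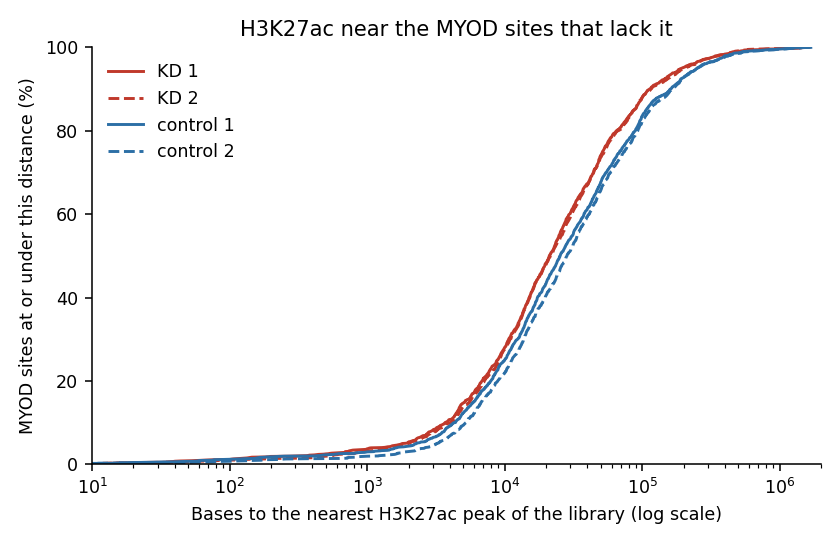
Cumulative percent of the 1648 unmarked sites (vertical axis) against distance to the nearest H3K27ac peak in bp on a log axis, 1 line per H3K27ac library. The TWIST2 KD lines run above the control lines, with medians of 21176 and 21670 bp against 25338 and 28394 bp.

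H3K27ac near the unmarked sites was more often seen in TWIST2 KD libraries than in control libraries. Both TWIST2 KD libraries and no control library had a peak within 10 kb of 100 unmarked sites (6.07%), while both control libraries and no TWIST2 KD library had one near 41 (2.49%). All 4 libraries had a peak within 10 kb of 270 sites, and none had one near 1038 (63.0%). Variable unmarked regions gave 7.74% for TWIST2 KD alone and 2.04% for control alone. The TWIST2 KD lists of H3K27ac were also the longer ones, and the part of list length in these counts was not tested. Since H3K27ac chose the sites, these are descriptions.

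Some sites lay at the edge of the rule. An H3K27ac peak lay within 100 bp of 57 unmarked sites. The site chr12:93673851-93674076 bordered an H3K27ac peak of control replicate 1 with 0 bases between them, and chr5:140105612-140105920 lay 1 bp from one in the same library. On the other side, chr2:100146547-100146840 overlapped H3K27ac of TWIST2 KD replicate 1 by 2 bp, and chr12:133053732-133053981 overlapped H3K27ac of control replicate 1 by 4 bp. Of the constant regions left out, 660 overlapped exactly 1 H3K27ac list.

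SMARCA4 shares were read along the distance to the nearest H3K27ac peak of any list. The 5 classes, up to 5 kb, 5 to 20 kb, 20 to 50 kb, 50 to 100 kb and over 100 kb, held 346, 590, 365, 181 and 166 unmarked sites. SMARCA4 in at least 1 library was found at 49.7%, 51.0%, 57.8%, 64.1% and 72.9% of them, in order of distance. TWIST2 in both lists was found at 30.6%, 36.1%, 32.1%, 38.1% and 29.5% in the same order. The share with SMARCA4 in any library was higher at each step away from H3K27ac, and TWIST2 followed no such order. In single libraries the order was broken in TWIST2 KD replicate 1, TWIST2 KD replicate 2 and control replicate 2.

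Each SMARCA4 library was then compared between the ends of this range, a comparison chosen after seeing the data. TWIST2 KD replicate 1 had SMARCA4 at 23.5% of sites over 100 kb from H3K27ac and 12.4% of sites up to 5 kb from it, and TWIST2 KD replicate 2 had it at 22.9% and 14.2%. Control replicate 1 had it at 34.3% and 17.3%, and control replicate 2 at 51.8% and 31.8%. The far sites averaged 33.1 ± 13.5% and the near sites 18.9 ± 8.81% (SD, n = 4 libraries). The difference of 14.2 percentage points pointed the same way in 4 of 4 libraries (exact sign-flip permutation p = 0.125, the smallest possible, adjusted p = 0.25).

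The place of the sites in the MYOD lists was read along the same distance. Files give no score for MYOD peaks, so the place of a peak in its list is used as a percentile in which 100 is the first entry. The files do not say what this order means. Within single chromosomes it had a rho of up to 0.412 (absolute value) with genome position. The median place of marked sites ran from 47.1 on chromosome X to 89.0 on chromosome 10. Chromosomes were not matched where classes are compared or weighted by this place. The median MYOD percentile was 51.3, 46.3, 43.6, 47.9 and 40 from the nearest to the farthest class. SMARCA4 in any library covered 75% of far and 56.0% of near sites in the upper part of the lists (64 and 207 sites), and 71.6% of far and 40.3% of near sites in the lower part (102 and 139 sites). Variable unmarked regions showed the same order at lower shares, with SMARCA4 in any library at 31.8% of those over 100 kb from H3K27ac and 15.3% of those up to 5 kb from it. TWIST2 in both lists also followed the distance there, at 15.5%, 17.8%, 18.6%, 20.3% and 23.6% from the nearest to the farthest class, unlike at the unmarked constant sites.

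**Figure D3:**
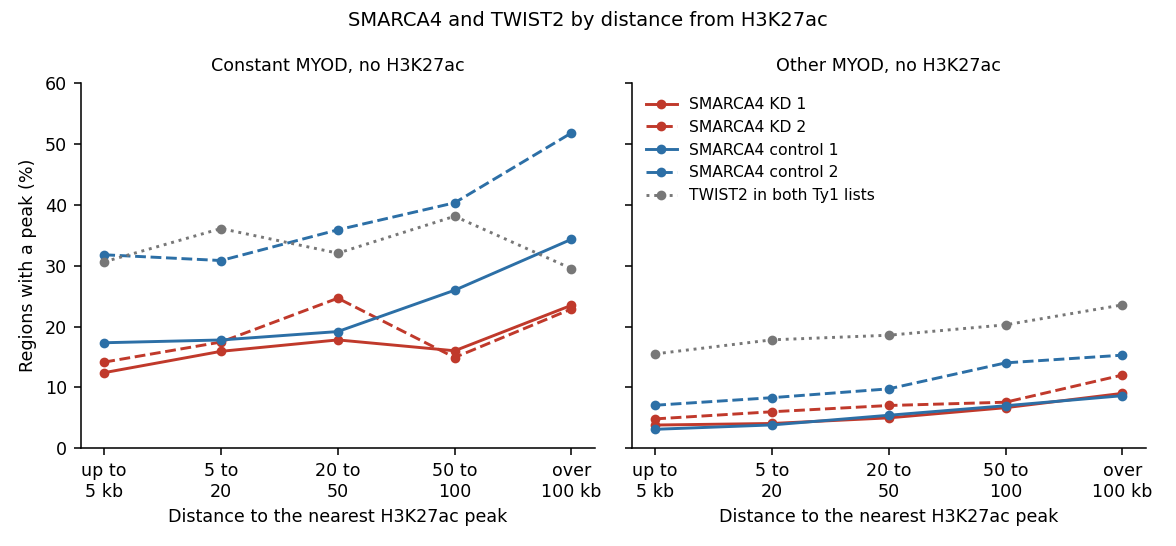
Percent of unmarked constant sites (left) and variable unmarked regions (right) with SMARCA4 in each library and with TWIST2 in both Ty1 lists (vertical axis), by class of distance to the nearest H3K27ac peak of any library. SMARCA4 was at 12.4% to 31.8% of unmarked constant sites up to 5 kb away and at 22.9% to 51.8% of sites over 100 kb away, while TWIST2 was at 30.6% and 29.5%.

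Within the MYOD lists, unmarked sites stood lower than marked ones. Their median percentile was 55.1 and 49.6 in the TWIST2 KD lists, where marked sites had 76.8 and 75.7. It was 42.6 and 42.0 in the control lists, where marked sites had 77.1 and 77.0. Percentiles of lists of different length cannot show whether MYOD binding changed between TWIST2 KD and control, so each holds within its own list. The first 10% of a list held 7.16% and 5.16% of unmarked sites in the TWIST2 KD lists and 2.43% and 2.67% in the control lists. Of the marked sites, the first 10% held 27.3% and 26.1% in the TWIST2 KD lists and 27.4% and 26.8% in the control lists.

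**Figure D4:**
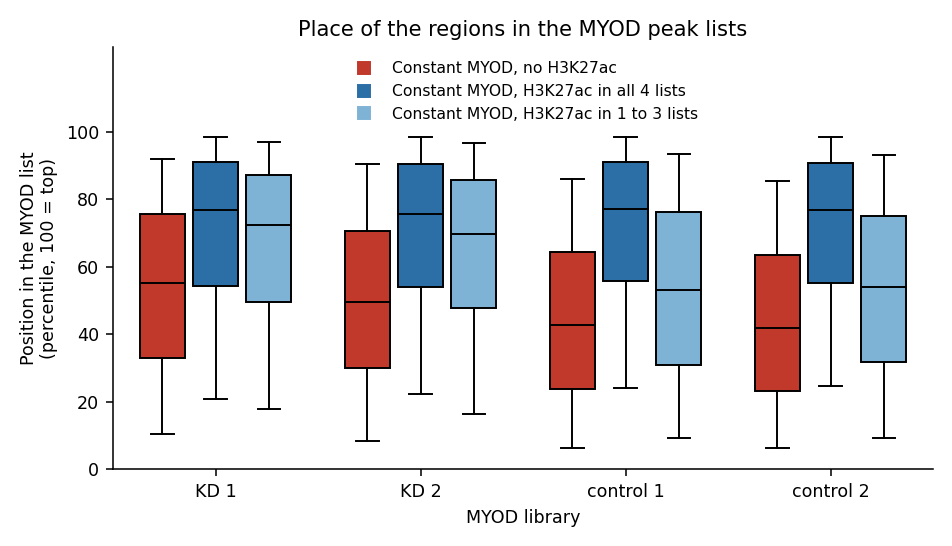
Place of constant sites in each of the 4 MYOD lists, as a percentile in which 100 is the first entry. Boxes give the median and quartiles and whiskers the 5th and 95th percentile of sites; unmarked medians lie between 42.0 and 55.1 and marked medians between 75.7 and 77.1.

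The place in the MYOD lists moved with TWIST2 and with SMARCA4. Sites were put in 5 classes of equal width by their mean MYOD percentile. From the lowest to the highest class, TWIST2 was called in both lists at 23.9%, 30.2%, 32.9%, 38.4% and 46.6% of unmarked sites. The marked sites gave 32.8%, 36.1%, 42.0%, 47.0% and 56.9% in the same order. In each of the 5 classes, unmarked sites had less TWIST2 than marked ones. The classes held 134, 529, 490, 362 and 133 unmarked sites and 195, 1181, 2456, 3569 and 5178 marked sites. Place within a class was not matched. SMARCA4 in any library was called at 41.8%, 52.0%, 56.3%, 64.1% and 61.7% of unmarked sites and at 48.7%, 54.4%, 60.4%, 66.2% and 74.1% of marked sites, in the same order.

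Single SMARCA4 libraries did not all keep this order within the classes of MYOD list place. Unmarked sites had the higher SMARCA4 share in 5 of 5 classes in TWIST2 KD replicate 2, in 2 of 5 in TWIST2 KD replicate 1, in 2 of 5 in control replicate 1 and in 0 of 5 in control replicate 2. With marked sites weighted to the MYOD places of the unmarked sites, an alternative chosen after seeing the data, the shares were 16.4% at unmarked and 16% at marked sites in TWIST2 KD replicate 1, and 18.6% and 16.3% in TWIST2 KD replicate 2. They were 20.6% at unmarked and 22.1% at marked sites in control replicate 1, and 35.3% and 41.0% in control replicate 2. The mean difference was then -1.11 percentage points (exact sign-flip permutation p = 0.75), with unmarked sites higher in both TWIST2 KD libraries and lower in both control libraries. TWIST2 in both Ty1 lists was at 33.6% of unmarked and 41.7% of marked sites under the same weighting.

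Of the 24 unmarked sites with SMARCA4 in all 4 libraries, 7 had a Ty1 peak in both lists, 5 in 1 list and 12 in none. Sites with both Ty1 lists were taken first for naming, so the examples do not show how often TWIST2 and SMARCA4 coincided. At chr2:210636324-210636603 SMARCA4 had 20.8 and 18 normalized tags in the TWIST2 KD libraries and 44.5 and 55.6 in the control libraries. It was the first entry of the lists of TWIST2 KD replicate 1 and control replicate 1, and the second entry of the other 2 lists. No Ty1 list had a peak there. The nearest H3K27ac peak was 107047 and 12561 bp away in the TWIST2 KD libraries and 107664 and 108239 bp away in the control libraries, and MYOD stood at percentiles 81.8, 69.6, 68.0 and 63.4.

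Of the 7 sites that had TWIST2 in both Ty1 lists as well, 3 are described here. Median normalized tags over whole lists were higher in control (7.07 and 6.69) than in TWIST2 KD libraries (4.99 and 4.38). Tags at a single site therefore do not show a change at that site. At chr7:27146231-27146545 SMARCA4 had 8.31 and 6.33 normalized tags in the TWIST2 KD libraries and 12.6 and 11.4 in the control libraries, so that both control values were the higher. At chr7:39629268-39629563 it had 11.1 and 7.06 in the TWIST2 KD libraries and 8.78 and 9.15 in the control libraries, and Ty1 stood at percentiles 92.2 and 92.2. At chr3:1651141-1651413 the nearest H3K27ac peak lay 516253 bp away, Ty1 stood at percentiles 96.5 and 94.6, and SMARCA4 had 6.65 and 5.84 tags in TWIST2 KD and 5.57 and 3.35 in control libraries, so that both control values were the lower.

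Among unmarked sites with TWIST2 in both lists and no SMARCA4 peak, the farthest from H3K27ac was chr18:42259002-42259266, at 910468 bp. It stood at percentiles 61.4 and 39.5 of the TWIST2 KD lists and 3.7 and 37.3 of the control lists for MYOD. At chr10:57391031-57391322, 260279 bp from the nearest H3K27ac, MYOD stood at 92.0 and 86.6 in the TWIST2 KD lists and 88.2 and 81.2 in the control lists. At chr6:46816839-46817096, 166202 bp away, MYOD stood at 92.2 and 89.2 in the TWIST2 KD lists and 72.1 and 71.5 in the control lists. Others of these sites stood low, as at chr11:20631650-20631920, with 13.3 and 1.9 in the TWIST2 KD lists and 19.4 and 4.4 in the control lists. The MYOD places of such sites thus ranged from low to high.

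The 8 unmarked sites highest in the MYOD lists lay between 1372 and 117106 bp from H3K27ac. The first of them, chr10:112380068-112380310, stood at percentiles 99.1 and 97.9 in the TWIST2 KD lists and 95.5 and 98.1 in the control lists, and had no SMARCA4 peak and a Ty1 peak in replicate 2 alone. At chr2:42299529-42299760 MYOD stood at 97.9 and 91.8 in the TWIST2 KD lists and 99.0 and 98.5 in the control lists, Ty1 stood at 97.9 and 97.9, and SMARCA4 was called in 3 libraries. At chr9:100174074-100174318 MYOD stood at 97.4 and 95.8 in the TWIST2 KD lists and 95 and 97.3 in the control lists, with no Ty1 peak, SMARCA4 in control replicate 2 alone and the nearest H3K27ac 117106 bp away. Each of the 8 sites had a peak of SMARCA4 or Ty1 in at least 1 library. Most unmarked sites did, since only 382 of the 1648 (23.2%) had neither.

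Another unmarked constant site lay within 10 kb of 79 of the 1648 (4.79%), and an unmarked constant site lay as near to 0.851% of marked sites and 3.38% of variable unmarked regions. Any other MYOD region lay within 10 kb of 924 unmarked constant sites (56.1%), against 77.5% of marked sites and 58.1% of variable unmarked regions. Another constant MYOD region lay within 10 kb of 257 unmarked constant sites (15.6%), against 28.2% of marked sites and 15.9% of variable unmarked regions. In the last 2 measures both unmarked classes were close to each other and below the marked sites. The closest group was on chromosome 1, where chr1:2427693-2427947, chr1:2432658-2432918 and chr1:2436122-2436406 lay within 10 kb of each other. None of the 3 had a Ty1 peak, and they had SMARCA4 in 1, 2 and 1 libraries.

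Chromosomes differed in how many of their constant MYOD regions were unmarked. The highest share was on chromosome 20, with 82 of 550 (14.9%, 95% Wilson interval 12.2% to 18.1%), followed by chromosome 10 with 106 of 887 (12.0%). The lowest shares were on chromosome X, with 5 of 233 (2.15%, 0.920% to 4.92%), and on chromosome 13, with 6 of 257 (2.33%, 1.07% to 5.0%). Over the 23 chromosomes the share had a Spearman's rho of 0.696 with the median MYOD percentile of marked sites and of 0.694 with the share of all MYOD regions lying outside H3K27ac. All chromosomes were read from the same libraries, so these are descriptions, and the part of either measure in the shares was not tested.

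**Figure D5:**
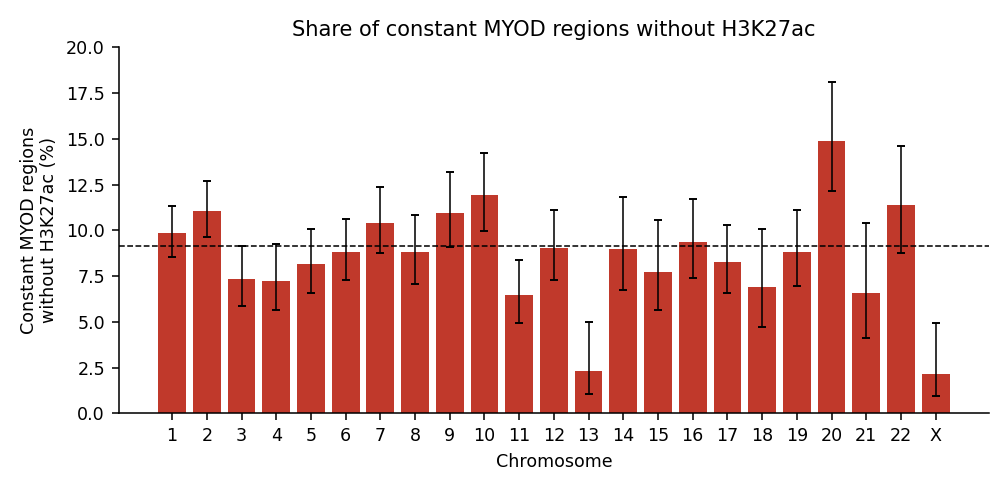
Percent of constant MYOD regions that were unmarked on each of the 23 chromosomes, with 95% Wilson intervals and a dashed line at 9.17% for the genome. Chromosome 20 (14.9%) lies above the line, and chromosomes X (2.15%) and 13 (2.33%) lie below it.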

How the data were processed

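The files hold peaks called by the authors in each of 14 ChIP-seq libraries of RD cells; the other 10 samples, all inputs, were not used. Bowtie2 2.3.4.3, SAMtools 0.1.19, bedtools 2.29.2, HOMER 4.4 and builds hg19 and GRCh37 are named per the submitters' processing notes. The deposited MYOD, H3K27ac and Ty1 lists give positions only, with no score; positions are printed 1-based in hg19. Per the file headers, SMARCA4 peaks were called by HOMER against a matched input, and each has a normalized tag signal, a peak score and a fold ratio over input, all the authors' values. Genes, sequences and motifs were not analysed here.

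Regions were merged and counted with Python 3.11.15, numpy 2.4.6 and pandas 2.3.3, tested with scipy 1.17.1 and plotted with matplotlib 3.10.9; the counting was tested on simulated data. The library is the unit of every test, exact permutation tests were used, and no test here can reach 0.05. Wilson intervals cover counting error only. Named sites were taken from those with most SMARCA4 lists (first those with both Ty1 lists), those with TWIST2 and no SMARCA4 farthest from H3K27ac, those nearest the edge of the rule, those with most neighbours, and those highest in the MYOD lists. Of the 8 comparisons, 5 were added after the data were seen: both with the variable unmarked regions, that between sites with and without TWIST2, that of the gap between TWIST2 KD and control, and that by distance from H3K27ac. The sites and lists were chosen with earlier results of these data known. Samples were grouped by their labels.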

Additional observations from a re-analysis of the deposited data

How the results depend on the processing

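Merging, overlap, width, distance and list-length choices were varied, and single libraries were left out. The mean of each of the 4 differences given here kept its sign. The SMARCA4 difference between unmarked and marked sites came near 0 and differed in direction between libraries under 2 choices. It was -0.112 against constant sites with H3K27ac in 1 to 3 lists and -1.11 with marked sites weighted by MYOD list place. Its direction also differed between libraries where an H3K27ac peak within 5 kb counted as an overlap for both classes, with a mean of -4.15. Unmarked sites up to 5 kb from H3K27ac then dropped out. The marked class then took in constant sites within 5 kb of H3K27ac in all 4 lists. The exact sign-flip permutation p was 0.25 there, whereas 4 libraries of the same direction give 0.125. The number of unmarked sites ran between 1302 and 1939 over these choices, and between 1736 and 2236 with 1 library left out. The SMARCA4 difference between TWIST2 KD and control ran between -11.4 and -2.34 percentage points over the choices, and between -17.8 and -3.06 with 1 library left out. The difference between unmarked and marked sites ran between -8.56 and -0.112 points for SMARCA4 (-7.20 to -3.57 with 1 library left out) and between -17.7 and -8.03 points for TWIST2 in both Ty1 lists (-15.3 to -13.3). The difference between far and near sites ran between 10.0 and 15.2 points (12.3 to 16), and no value could be had where sites up to 5 kb from H3K27ac were left out. The part of library strength in these ranges was not tested.

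The replicate block, which pairs TWIST2 KD and control libraries by their number, left the SMARCA4 difference at -10.4 percentage points with an exact p of 0.5, the smallest that 2 pairs allow. Deviations of same-numbered libraries had a correlation of -0.0312 over 48009 SMARCA4 regions, so the number was not taken as a pairing. With 2 libraries per group and no depth for the MYOD, H3K27ac and Ty1 lists, a site without a peak cannot be told from a site below the threshold.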
